A study of Mus musculus with 13 samples.

Results

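Genes for the protein subunits of the mitochondrial ribosome were examined in T cells sorted from B16-F10 tumors, a transplantable mouse melanoma. They were taken as every gene of the deposited table whose symbol starts with Mrpl or Mrps, and there were 77 of them among 12963 listed genes. Of these, 49 encode proteins of the large subunit and 26 proteins of the small subunit, by textbook assignment. The other 2 are Mrpl23-ps1, named as a pseudogene, and Mrps36, named for the small subunit but since assigned to the oxoglutarate dehydrogenase complex. Mrps30 and Mrps18a belong to the large subunit despite their symbols and were counted there. All 77 genes passed the filter for testing, at least 10 normalized reads in at least 2 libraries. Normalized reads are the deposited values, which are read counts divided by 1 size factor per library.

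All 13 libraries came from Foxp3-EGFP-DTR mice, whose endogenous Foxp3 promoter expresses EGFP together with a receptor for diphtheria toxin (DTx), and injected toxin therefore removes regulatory T (Treg) cells. Mice given saline (PBS) provided 3 groups, namely Treg cells (Treg PBS, n = 3), CD4+ conventional or Tconv cells (CD4 PBS, n = 2) and CD8+ Tconv cells (CD8 PBS, n = 2). Mice given DTx provided both kinds of Tconv cell (CD4 DTx and CD8 DTx, n = 3 each). All mice carried the receptor allele and the tumor, and no library held Treg cells after DTx. Libraries bear a number in their titles, 1 to 3 in the groups of 3 and 2 and 3 in the groups of 2.

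The mitochondrial ribosome makes the few respiratory chain and ATP synthase proteins that are encoded in mitochondrial DNA. Its ribosomal RNAs come from that DNA, whereas all of its proteins are encoded in the nucleus, made in the cytosol and imported. Some of the proteins descend from bacterial ribosomal proteins and others were added in the mitochondrial lineage. The list used here placed 45 of the 75 in the first class and 30 in the second. It also left Mrps18a and Mrps18b, relatives of bacterial S18, among the 30. Activated and dividing T cells are known to enlarge their mitochondria, which requires both genomes to be expressed together.

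The libraries held between 15947556 and 34140486 recovered reads, the whole reads that the values give back, and 3 reads, taken as the floor of detection, were worth between 1.98 and 4.10 normalized reads. Defining markers went with the labels: Foxp3 was between 1178 and 1896 normalized reads in Treg PBS and at most 12.1 elsewhere, and Cd4 was at most 413 in the CD8 libraries. Cd8a was higher in CD4 DTx (103, 711 and 1302 normalized reads) than in CD4 PBS (31.4 and 26.4). In all 5 groups the library numbered 3 listed Xist at 0 and held RNA of the Y-linked Ddx3y (at least 2598 normalized reads), whereas Ddx3y was 0 in the libraries numbered 1 and 2, so the number and the sex of the mice cannot be told apart. The library numbered 3 is 1 of 2 libraries in each PBS Tconv group and 1 of 3 in the other groups. Comparisons between these are therefore not balanced for number or sex. In all groups but CD8 PBS the libraries numbered 3 were also low in the genes of the module, and values without them or within a number are given beside the medians of the module. The summed level of 5 dividing-cell markers (Mki67, Top2a, Ccnb1, Cdk1 and Mcm5) lay between 14200 and 32100 normalized reads for Treg PBS, between 6260 and 10000 for CD4 DTx and between 13700 and 27800 for CD8 DTx, against 2240 to 3030 in CD4 PBS and 3290 to 6220 in CD8 PBS. Summed melanocyte markers lay at 60.7 to 170 normalized reads after DTx, 171 to 629 in the PBS Tconv libraries and 727 to 1200 in Treg PBS, and erythroid markers at 0 to 1170, 948 to 6570 and 1840 to 3220. Myeloid marker sums were 88.8 to 3490 and B cell marker sums 92.6 to 1300 over all libraries. The part of these markers in the differences below was not tested. In pooled cells, fewer cells of a type and less RNA per cell cannot be told apart.

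Promoter sequence is shown for the 2 genes of the module that carried the clearest group differences, Mrps5 and Mrps6, for Mrpl27, which was higher in Treg cells, and for Mrpl22, which followed the mean of the module closely and was picked after its values were seen. Each line gives the 150 bases that end at the RefSeq start site in the GRCm38.p6 build, with matches to the ETS motif CCGGAAG or to the NRF1 core GCATGCG in capitals. These are sites of transcription factors (GABPA among the ETS proteins, and NRF1) known to act on nuclear genes of mitochondria.
Mrps5, chr2:127587276-127587425, plus strand: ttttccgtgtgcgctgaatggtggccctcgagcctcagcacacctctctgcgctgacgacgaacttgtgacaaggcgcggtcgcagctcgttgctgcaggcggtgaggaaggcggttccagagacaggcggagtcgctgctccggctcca
Mrps6, chr16:92058186-92058335, plus strand: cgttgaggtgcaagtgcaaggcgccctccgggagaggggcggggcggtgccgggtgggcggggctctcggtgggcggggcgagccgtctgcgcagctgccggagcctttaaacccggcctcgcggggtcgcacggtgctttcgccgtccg
Mrpl27, chr11:94653641-94653790, plus strand: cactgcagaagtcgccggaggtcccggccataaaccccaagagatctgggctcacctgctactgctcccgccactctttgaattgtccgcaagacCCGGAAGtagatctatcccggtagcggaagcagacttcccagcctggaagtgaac
Mrpl22, chr11:58171514-58171663, plus strand: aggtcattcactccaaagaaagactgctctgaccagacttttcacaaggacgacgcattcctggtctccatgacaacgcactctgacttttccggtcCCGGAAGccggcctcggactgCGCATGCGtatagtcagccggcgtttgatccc
The stretches of Mrps5 and Mrps6 hold neither motif. Mrpl27 has the ETS letters 55 bases before its start, and Mrpl22 has them 53 bases before, with the NRF1 core nearer the start, read on both strands at overlapping positions.

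RefSeq windows of 250 bases before to 50 after the start were at hand for 67 of the 77 genes (73 windows), and 4 motifs were searched in them on both strands. CCGGAAG occurred in 24 of the 73 windows (32.9%), against 17.5% of the windows of all tested genes and 8.9% of all windows. The NRF1 core occurred in 7 windows (9.6%, against 6.3% of tested genes) and the YY1 core GATGGCG in 8 (11%, against 6.4%). The E-box CACGTG, which Myc and related factors recognise, occurred in 7 windows (9.6%, against 9.7%). Of these, 3 were overlapping windows of Mrpl2 that hold the same site. At least 1 of the first 3 motifs was present in 34 windows (46.6%, against 26.9%). Several genes followed the mean of the module more closely than Mrpl22 (correlation 0.94). Of these, Mrps14 (0.97) and Mrps7 (0.95) hold none of the 4 motifs in their windows. Mrps18a (0.96) and Mrpl21 (0.96) hold the ETS motif, and Mrpl42 (0.97) the YY1 core alone. Mrps36, higher in Treg cells, holds none, and Mrps18b, lower there, holds the ETS motif and the NRF1 core. These genes are named after their values were seen. These are descriptions of letters, and binding was not measured.

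The mean level of the module spread more widely over the libraries of each group of 3 than the 5 group means did. Each gene was centred on its own mean over the 13 libraries on the log2(value + 1) scale, and the 77 deviations were averaged within each library. The mean deviation was 0.30, 0.18 and -0.33 in Treg PBS 1, 2 and 3. It was -0.06 and -0.36 in CD4 PBS 2 and 3, and 0.22, -0.11 and -0.23 in CD4 DTx 1, 2 and 3. It was -0.03 and -0.06 in CD8 PBS 2 and 3, and 0.48, 0.30 and -0.29 in CD8 DTx 1, 2 and 3. The highest values therefore lay in the libraries numbered 1 of Treg PBS and CD8 DTx, and the library numbered 3 was the lowest in every group.

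**Figure D1:**
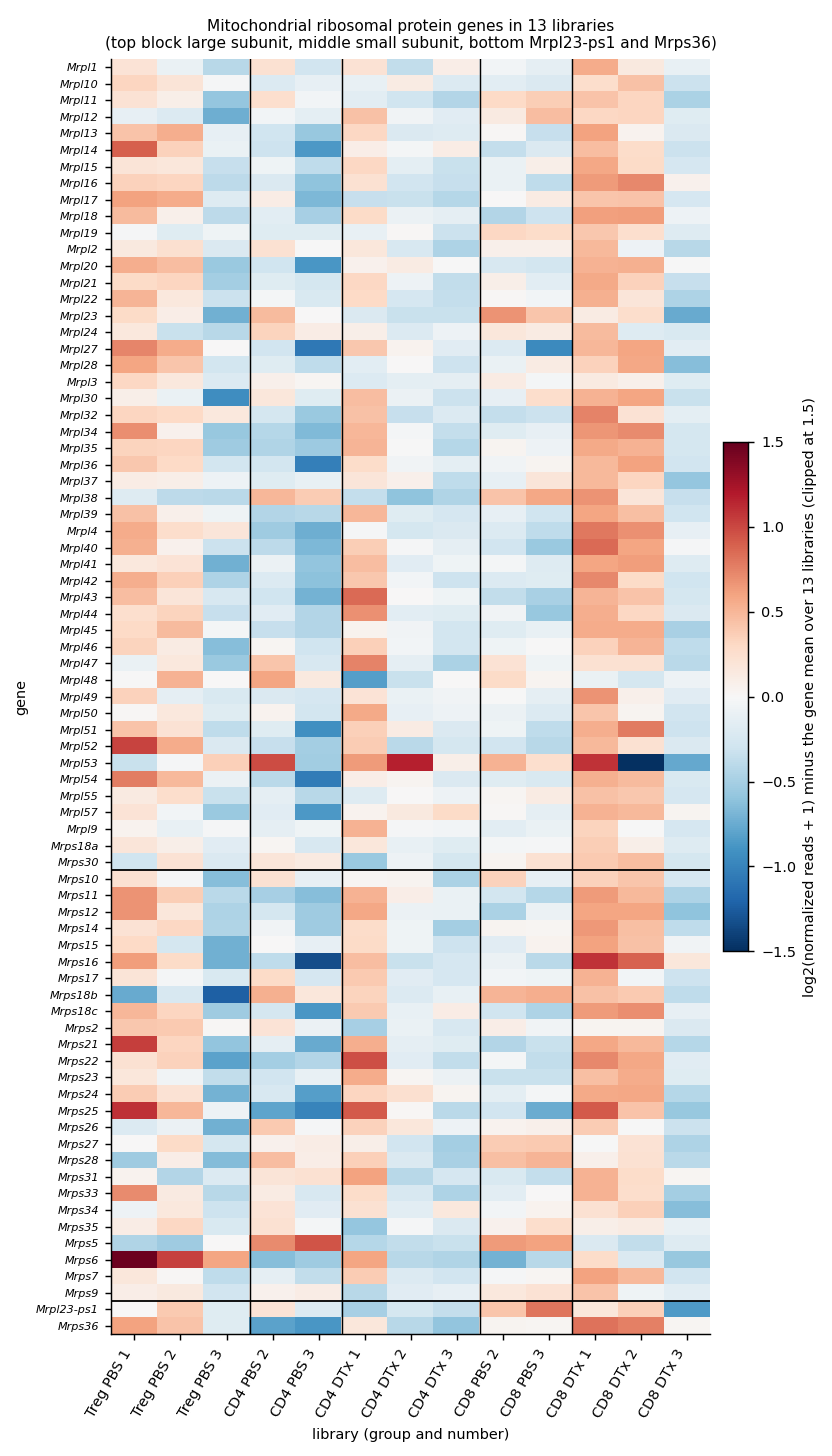
Each row is 1 of the 77 genes and each column 1 of the 13 libraries; colour is log2(normalized reads + 1) minus the mean of the gene over all libraries, red above and blue below. Most rows are red in Treg PBS 1, CD8 DTx 1 and CD8 DTx 2 and blue in the libraries numbered 3, while Mrps5 is red in the 4 PBS Tconv libraries and blue in most of the others.

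Ordered by group mean, the mean deviation was -0.21 ± 0.22 (SD, n = 2) in CD4 PBS, -0.04 ± 0.03 (SD, n = 2) in CD8 PBS, -0.04 ± 0.23 (SD, n = 3) in CD4 DTx, 0.05 ± 0.33 (SD, n = 3) in Treg PBS and 0.16 ± 0.40 (SD, n = 3) in CD8 DTx. Neighbours in this order overlapped in their libraries. Gene by gene, CD8 DTx had the highest group mean for 40 of the 77 genes (18.2% of all tested genes) and CD4 PBS the lowest for 43 (25.6% of all tested genes). Together the 77 genes took between 0.262% and 0.424% of the normalized reads of a library.

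The library numbered 3 was the lowest of its group for 70 of 77 genes in Treg PBS (90.9%, against 30.6% of all tested genes), 74 in CD8 DTx (96.1%, against 38.4%), 65 in CD4 PBS (84.4%, against 49.3%) and 51 in CD4 DTx (66.2%, against 30.5%). In CD8 PBS the share was 51.9%, against 51.9% of all tested genes. The median difference between the library numbered 3 and the mean of the others of its group was -0.63 on the log2 scale in Treg PBS, -0.70 in CD8 DTx, -0.29 in CD4 PBS, -0.30 in CD4 DTx and -0.01 in CD8 PBS. The library numbered 3 had the fewest recovered reads of its group in every group but CD4 PBS, where it had the most, and the part of depth or sex in its low values was not tested.

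Most genes of the module moved together across libraries. The correlation of a gene with the mean of the other 76 over the 13 libraries had a median of 0.78, and it exceeded 0.5 for 60 of the 77 genes (77.9%), against 17% of all tested genes with the mean of the module. The points share depth, amplification and the groups, so these values are descriptions. Mrpl15 had the highest correlation (0.97) and Mrps18a, a protein of the large subunit, reached 0.96. Only 3 genes were negative, namely Mrps5 (-0.49), Mrpl48 (-0.24) and Mrpl53 (-0.16), of which the last stayed between 0 and 23.5 normalized reads. Mrpl15, Mrpl48 and Mrpl53 are named here after their values were seen.

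**Figure D2:**
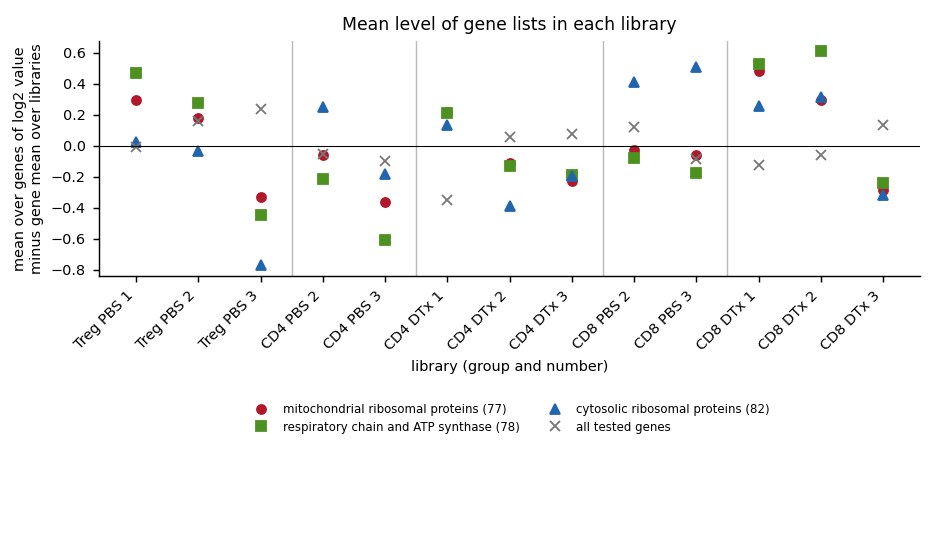
For each of the 13 libraries on the horizontal axis, points give the mean over the genes of a list of log2(normalized reads + 1) minus the gene mean over libraries. Mitochondrial ribosomal proteins (red) and the respiratory chain list (green) are both high in Treg PBS 1, CD8 DTx 1 and CD8 DTx 2 and lowest of their group in the libraries numbered 3, and cytosolic ribosomal proteins (blue) are highest in CD8 PBS and lowest in Treg PBS 3.

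The first comparison asked how the genes of the module differed between Treg cells and CD4+ Tconv cells of tumors with Treg cells present. Of the 77 genes, 5 were higher and 2 lower in Treg PBS, by limma with a Benjamini-Hochberg adjusted p under 0.05 over all tested genes. That was 9.09% of the module against 20.4% of all tested genes, of which 13.5% were called higher and 6.91% lower. The median log2 fold change of the 77 was 0.23, against 0.01 for all tested genes, and 53 of the 77 values lay above 0 (51.1% of all tested genes). Genes without an adjusted p under the threshold were not called, and at an unadjusted p under 0.05 there were 15. The share of all tested genes at that unadjusted cut was not computed in any comparison. Here it was at least the 20.4% that were called, because adjustment never lowers a p-value.

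Mrps6, the counterpart of a bacterial protein of the small subunit platform, had the largest positive value. It was at 2330, 1714 and 1267 normalized reads in Treg PBS 1, 2 and 3 and at 543 and 583 in CD4 PBS 2 and 3. The groups did not overlap, and the Treg library numbered 3 was the lowest of the 3. The log2 fold change was 1.61 (SE 0.37, 3.05-fold, limma adjusted p = 0.0095). In the GRCm38 annotation, Mrps6 shares 19.9% of its exon bases with other genes on its strand, among them Slc5a3, a myo-inositol transporter. Slc5a3 was at 323, 261 and 559 normalized reads in Treg PBS and at 168 and 275 in CD4 PBS, without passing the test (limma adjusted p = 0.55).

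The other 4 genes that were higher lay about 2-fold apart between the groups. Mrps36 was at 840, 739 and 486 normalized reads in Treg PBS and at 314 and 301 in CD4 PBS (log2 fold change 1.12, SE 0.34, limma adjusted p = 0.036). Mrpl27, the counterpart of a bacterial protein that reaches towards the peptidyl transferase centre, was at 1562, 1380 and 943 in Treg PBS and at 769 and 445 in CD4 PBS (log2 fold change 1.11, SE 0.36, limma adjusted p = 0.045). Mrpl54, a protein particular to mitochondria, was at 1552, 1273 and 855 in the Treg libraries and at 687 and 441 in the CD4 PBS libraries (log2 fold change 1.11, SE 0.32, limma adjusted p = 0.028). All 3 showed the same order of libraries, with Treg PBS 1 at the top and Treg PBS 3 nearest to the CD4 PBS values. Mrpl4, the counterpart of bacterial L4, which lines the peptide exit tunnel, was at 4127, 3370 and 3173 normalized reads in Treg PBS and at 1935 and 1694 in CD4 PBS (log2 fold change 0.96, SE 0.25, limma adjusted p = 0.019).

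Mrps5, the counterpart of bacterial S5, which lies where messenger RNA enters the small subunit, went the other way. It was at 575, 541 and 789 normalized reads in Treg PBS and at 1282 and 1507 in CD4 PBS, with no overlap. The log2 fold change was -1.15 (SE 0.23, limma adjusted p = 0.0037). None of its exon bases are shared with another annotated gene. Mrps18b, 1 of 3 mammalian relatives of bacterial S18, was at 290, 413 and 208 in Treg PBS and at 707 and 552 in CD4 PBS (log2 fold change -1.09, SE 0.36, limma adjusted p = 0.0495, and 0.051 without the filter on low values). It shares 30.5% of its exon bases with Gm16279 on the opposite strand, whose reads cannot be told from its own where strand is not used, and Gm16279 itself stood at 6.5 to 68.3 normalized reads in these 5 libraries.

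**Figure D3:**
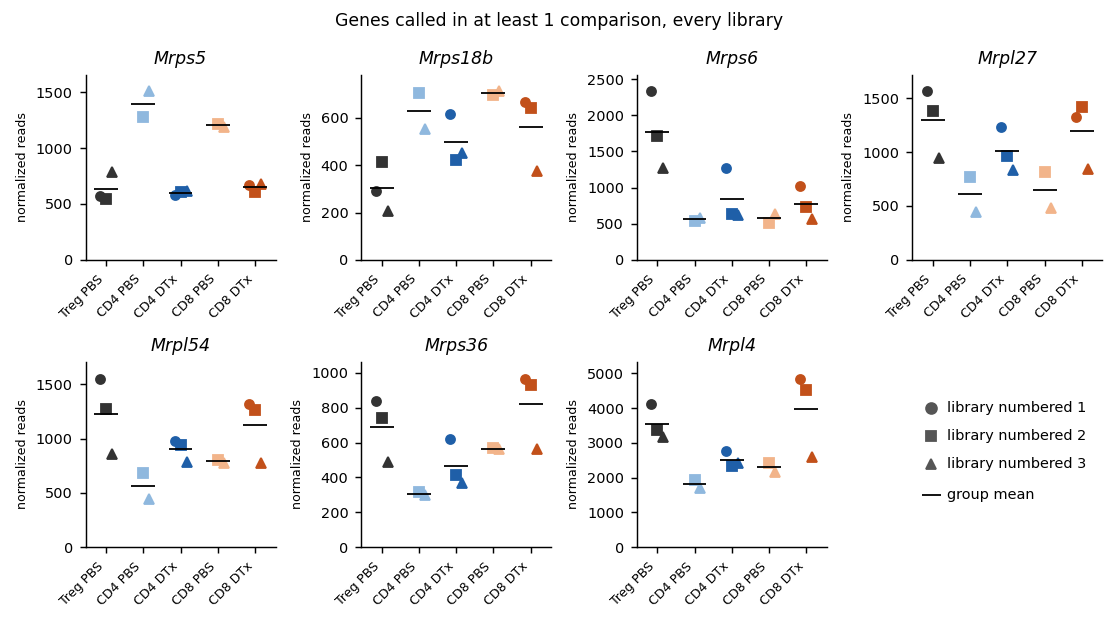
Normalized reads of the 7 genes called in at least 1 comparison, 1 panel each with the vertical axis from 0; symbols are libraries, shaped by their number, and bars are group means. Mrps5 lies between 1193 and 1507 in the 4 PBS Tconv libraries and between 541 and 789 in all 9 others, and Mrps6 has its highest group mean in Treg PBS.

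The calls did not hold without CD4 PBS 3, which leaves 1 CD4 PBS library, and fewer of all tested genes were called there too. Without Treg PBS 3 the count became 11, with 10 genes higher and 1 lower, where 20.9% of all tested genes were called. Between the libraries numbered 2 the median log2 difference of the 77 genes was 0.24, and between those numbered 3 it was 0.07. The median over all libraries, 0.23, became 0.14 without Treg PBS 1 or CD4 PBS 3, 0.37 without CD4 PBS 2 and 0.46 without Treg PBS 3.

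The next comparisons asked what Treg cell ablation was accompanied by in Tconv cells. In CD4 DTx against CD4 PBS, 1 of the 77 genes was called (1.30%, against 12.7% of all tested genes in either direction and 4.08% called lower), and it was again Mrps5. Its values in CD4 DTx were 580, 606 and 620 normalized reads, all below the 1282 and 1507 of CD4 PBS. The log2 fold change was -1.21 (SE 0.23, 95% interval -1.70 to -0.72, limma adjusted p = 0.0039). This comparison shares the CD4 PBS libraries with the previous comparison.

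The median log2 fold change of the 77 genes in CD4 DTx was 0.19, against -0.04 for all tested genes, and 54 lay above 0 (47.2% of all tested genes). The groups did not overlap for 27 genes that were higher (against 23.4% of all tested genes) and 11 that were lower (against 22.9%). An unadjusted p under 0.05 was reached by 6 genes, and by at least the 12.7% of all tested genes that were called. Between the libraries numbered 2 the median difference was -0.01 and between those numbered 3 it was 0.08, so the positive median did not hold within both numbers. It was 0.07 without CD4 DTx 1, 0.10 without CD4 PBS 3, 0.31 without CD4 PBS 2 and 0.33 without CD4 DTx 3.

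In CD8 DTx against CD8 PBS, Mrps5 was likewise the single gene called (1.30%, against 10.9% of all tested genes in either direction and 3.47% called lower). It was at 673, 605 and 682 normalized reads in CD8 DTx and at 1220 and 1193 in CD8 PBS. The log2 fold change was -0.89 (SE 0.23, 95% interval -1.38 to -0.40, limma adjusted p = 0.027). These libraries are separate from those of the CD4 comparison, and the groups did not overlap in either. The call was lost without CD8 DTx 1 (limma adjusted p = 0.055) or CD8 DTx 2 (0.077), and when the 2 groups were fitted alone (0.092). Of all tested genes, 6.83%, 6.2% and 6.21% were called in these fits, in place of 10.9%. The call did not hold without CD8 PBS 2 or CD8 PBS 3 either, which leaves 1 library in that group. The log2 fold change without any 1 library stayed between -0.92 and -0.83. In CD4 Tconv cells the call was lost without CD4 PBS 3, which leaves 1 library in that group.

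The median log2 fold change of the 77 genes in CD8 DTx was 0.26, against -0.03 for all tested genes, with 56 above 0 (48.2% of all tested genes). The groups did not overlap for 14 genes that were higher (against 22.8% of all tested genes) and 7 that were lower (against 20.8%). An unadjusted p under 0.05 was reached by 9 genes, and by at least the 10.9% of all tested genes that were called. Within numbers the median had opposite signs, 0.45 between the libraries numbered 2 and -0.16 between those numbered 3. The median was 0.08 without CD8 DTx 1, 0.16 without CD8 DTx 2 and 0.49 without CD8 DTx 3. Without CD8 DTx 3 there were 6 calls, 5 of them higher, in place of 1, while 19.7% of all tested genes were called in place of 10.9%.

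**Figure D4:**
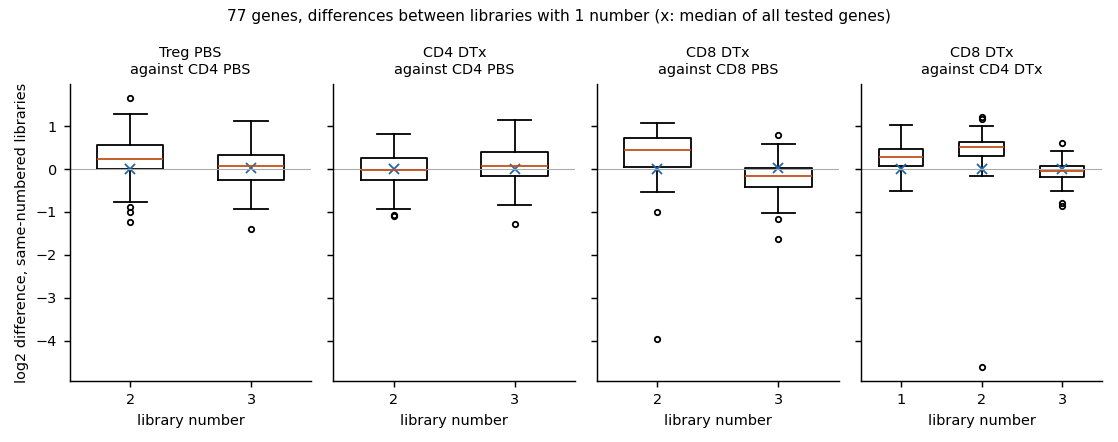
Boxes show, over the 77 genes, the log2 difference between libraries that bear the same number (horizontal axis) in each of 4 comparisons; the orange line is the median, boxes span the quartiles, whiskers reach 1.5 quartile ranges, circles lie beyond, and blue crosses are medians of all tested genes. The median of CD8 DTx against CD8 PBS is 0.45 for number 2 and -0.16 for number 3, and the low circles near -4 and beyond are Mrpl53.

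Whether DTx was accompanied by different changes in CD4 and CD8 Tconv cells was tested as an interaction. None of the 77 genes was called (0 of 77, against 0.0474% of all tested genes). By edgeR and DESeq2 the counts were 0 too (0.0316% and 0.671% of all tested genes). By limma, 0 genes had an unadjusted p under 0.05. The smallest p belonged to Mrps31 (difference of log2 fold changes -0.80, 95% interval -1.87 to 0.27), Mrpl38 (-0.57, interval -1.44 to 0.29) and Mrps30 (-0.52, interval -1.32 to 0.29), each with a limma adjusted p of 1. For Mrps5 the difference was -0.32, and its interval reached from -1.02 to 0.38. The median half-width of these intervals was 0.99, so differences under about 2-fold between the cell types were not detectable with these numbers of libraries.

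Compared with Treg PBS, CD8 DTx had 1 gene called (1.30%, against 8.6% of all tested genes called in either direction and 4.71% called lower). This was Mrps6, at 1021, 724 and 567 normalized reads in CD8 DTx, all below the lowest Treg value of 1267 (log2 fold change -1.20, SE 0.33, limma adjusted p = 0.044). The call was lost without Treg PBS 1 (limma adjusted p = 0.16), Treg PBS 2 (0.12), CD8 DTx 2 (0.12) or CD8 DTx 3 (0.12). Of all tested genes, 6.12%, 5.57%, 5.77% and 7.6% were called in these fits, in place of 8.6%. No gene was called in CD4 DTx against Treg PBS (0 of 77, against 7.91% of all tested genes), where edgeR gave 0 (5.86% of all tested genes) and DESeq2 gave 2 (12.2%). An unadjusted p under 0.05 was reached by 6 genes, and by at least the 7.91% of all tested genes that were called. Mrps6 was at 1271, 629 and 615 normalized reads in CD4 DTx, so that CD4 DTx 1 just exceeded the lowest Treg library.

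The medians of the module were -0.08 in CD4 DTx against Treg PBS and 0.13 in CD8 DTx against Treg PBS, beside -0.04 and -0.02 for all tested genes. The first turned to 0.05 without Treg PBS 1 and to 0.03 without CD4 DTx 3, and the second to -0.04 without Treg PBS 3 or without CD8 DTx 1.

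In Treg PBS against CD8 PBS, 1 gene was higher and 2 were lower (3.90%, against 18.7% of all tested genes, 11.9% called higher and 6.75% lower). Mrps6 was at 515 and 629 normalized reads in CD8 PBS, close to its level in CD4 PBS, and the log2 fold change was 1.59 (SE 0.37, limma adjusted p = 0.011). Mrps18b was at 697 and 712 in CD8 PBS (log2 fold change -1.27, SE 0.36, limma adjusted p = 0.028). Mrps5, at 1220 and 1193 in CD8 PBS, gave -0.95 (SE 0.23, limma adjusted p = 0.012). The 3 calls did not hold without CD8 PBS 2 or without CD8 PBS 3. Either fit leaves 1 library in that group, and fewer of all tested genes were called there too. Without any 1 library the log2 fold change stayed between 1.37 and 1.81 for Mrps6 and between -1.51 and -1.02 for Mrps18b. For Mrps5 it stayed between -1.11 and -0.84. The median of the 77 genes was 0.06, against 0.02 for all tested genes, and it was 0.24 between the libraries numbered 2 and -0.29 between those numbered 3. It was -0.06 without Treg PBS 1, 0.12 without CD8 PBS 2 and 0.30 without Treg PBS 3.

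The 2 kinds of Tconv cell were compared under each treatment. No gene was called in CD8 PBS against CD4 PBS (0 of 77, against 1.08% of all tested genes) or in CD8 DTx against CD4 DTx (0 of 77, against 1.64%). In both, edgeR also gave 0 (0.758% and 1.03% of all tested genes), and so did DESeq2 (2.52% and 4.11%). An unadjusted p under 0.05 was reached by 1 and 3 genes, and by at least the 1.08% and 1.64% of all tested genes that were called. In CD8 DTx against CD4 DTx, 69 of the 77 log2 fold changes lay above 0 (50.6% of all tested genes), with a median of 0.23, against 0.01 for all tested genes. The median was 0.28 between the libraries numbered 1, 0.50 between those numbered 2 and -0.04 between those numbered 3. Over all libraries but CD8 DTx 1 it was 0.10, with 52 above 0, and over all but CD8 DTx 3 it was 0.46, with 76 above 0. It was 0.13 without CD8 DTx 2 or CD4 DTx 3 and 0.35 without CD4 DTx 1. In CD8 PBS against CD4 PBS the median was 0.17, with 57 above 0 (49.0% of all tested genes), and it was 0.05 between the libraries numbered 2 and 0.25 between those numbered 3. Over all libraries but CD4 PBS 3 it was 0.01, with 39 above 0, and over all but CD4 PBS 2 it was 0.28, with 71 above 0.

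**Figure D5:**
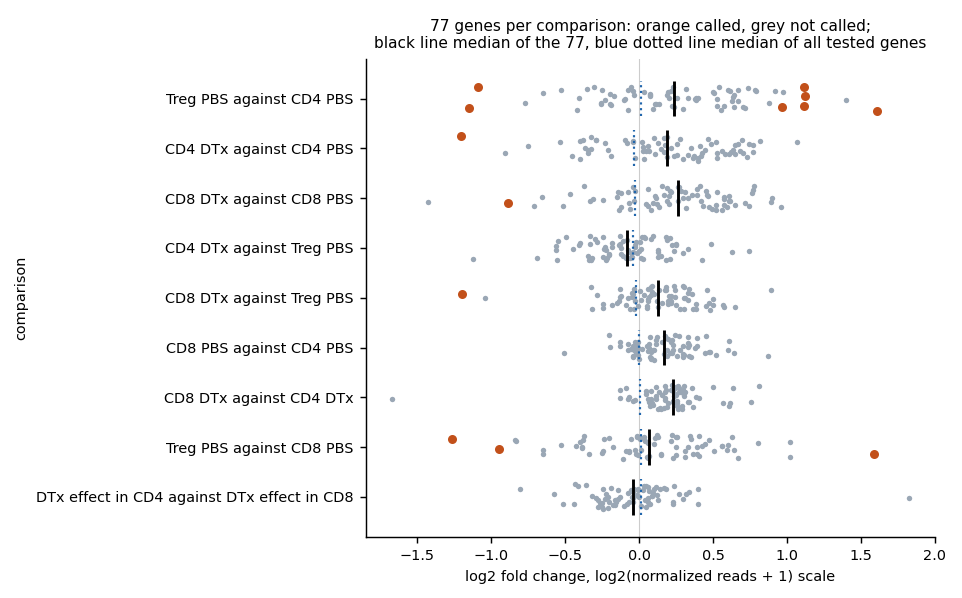
Each point is the log2 fold change of 1 of the 77 genes in the comparison named on the vertical axis, spread vertically only for legibility; orange points passed the test, black lines mark the median of the 77 and dotted blue lines the median of all tested genes. The medians of the 77 lie at 0.23, 0.19 and 0.26 in the first 3 comparisons, and 7, 1 and 1 genes are called there.

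Divided by subunit, the 49 genes of the large subunit had medians of 0.30 in Treg PBS against CD4 PBS, 0.25 in CD4 DTx and 0.26 in CD8 DTx, with 3 genes higher in the first and 0 called in the other comparisons. The 26 of the small subunit had medians of 0.15, 0.05 and 0.23, with 1 higher and 2 lower in the first and 1 lower in each of the others. The calls in CD4 DTx and CD8 DTx were both Mrps5, and whether the subunits differed was not tested. Of all tested genes, 20.4%, 12.7% and 10.9% were called in the 3 comparisons. The 45 genes listed with a bacterial counterpart had medians of 0.30, 0.18 and 0.22. The other 30, with Mrps18a and Mrps18b among them, had 0.20, 0.28 and 0.31.

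Of the genes set apart by their symbols, Mrps18a ranged over 852 to 1086 normalized reads among Treg libraries and 812 to 976 among those of CD4 PBS, and was not called in any comparison. Mrps30 was at 932, 1301 and 1136 in CD4 DTx and at 1557 and 1499 in CD4 PBS, without overlap (log2 fold change -0.46, SE 0.26, limma adjusted p = 0.29). Mrps36 was at 618, 412 and 366 in CD4 DTx, above both CD4 PBS values (log2 fold change 0.56, SE 0.34, limma adjusted p = 0.33), and at 966, 927 and 561 in CD8 DTx, against 566 and 561 in CD8 PBS. The pseudogene row Mrpl23-ps1 was at 128 to 401 normalized reads in all libraries. Uniquely mapped reads were used, and part of its sequence can be shared with Mrpl23, so its values are uncertain.

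Subunits of the mitochondrial ribosome also exist under other symbols, and 6 of 7 listed ones were in the table, none of them called in the 3 main comparisons. Dap3, a GTP-binding protein of the small subunit, was at 1811, 1857 and 1683 normalized reads in CD4 DTx and at 2541 and 3040 in CD4 PBS (log2 fold change -0.64, SE 0.24, limma adjusted p = 0.10). Ptcd3, a pentatricopeptide protein of the small subunit, was at 1937, 1593 and 1486 in CD8 DTx and at 2407 and 2489 in CD8 PBS (log2 fold change -0.56, SE 0.21, limma adjusted p = 0.11). Chchd1 and Aurkaip1 of the small subunit and Gadd45gip1 and Ict1 of the large subunit had log2 fold changes between -0.29 and 0.45 in these comparisons. Mrp63, the remaining symbol, is an older name of Mrpl57, which was counted among the 77.

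The genes that build and serve this ribosome were taken from lists by function. Of 19 tested assembly factors and rRNA modifying enzymes, 2 were higher and 3 lower in Treg PBS against CD4 PBS, 1 was higher in CD4 DTx, and 1 was higher and 3 lower in CD8 DTx, where 20.4%, 12.7% and 10.9% of all tested genes were called. The median log2 fold changes of that list were -0.33, -0.39 and -0.52. The gene that rose in all 3 comparisons was Ddx28, an RNA helicase for assembly of the large subunit. It was at 1167, 819 and 832 normalized reads in Treg PBS, at 2329, 1903 and 1713 in CD4 DTx and at 1851, 2211 and 1238 in CD8 DTx. In the PBS Tconv cells it was at 493 and 309 (CD4) and at 411 and 243 (CD8). The log2 fold changes were 1.24, 2.33 and 2.44 (limma adjusted p = 0.020, 7.2e-04 and 0.0012). In CD4 DTx and CD8 DTx these values lay above the largest among the 77 genes (1.07 and 0.96).

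Mrm1, which methylates the large rRNA, was lower in Treg PBS (220, 316 and 419 normalized reads) than in CD4 PBS (1386 and 882), with a log2 fold change of -1.84 (limma adjusted p = 0.0017), and lower in CD8 DTx than in CD8 PBS (-1.33, limma adjusted p = 0.020). Mettl15, which methylates the small rRNA, was at 782, 439 and 437 in Treg PBS and at 142 and 144 in CD4 PBS (log2 fold change 1.89, limma adjusted p = 0.0055). Rnmtl1 and Dhx30 were lower in Treg cells in the same comparison (-1.42 and -1.14), and Fastkd2 and Mettl17 lower in CD8 DTx than in CD8 PBS (-0.91 and -0.88).

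Of 17 mitochondrial aminoacyl-tRNA synthetases, which charge the tRNAs that this ribosome reads, none was higher in the 3 main comparisons, and 2, 1 and 2 were lower (against 6.91%, 4.08% and 3.47% of all tested genes). Ears2, for glutamate, was at 1078 and 1019 normalized reads in CD4 PBS and 788 and 850 in CD8 PBS, and between 108 and 364 in all 9 other libraries. Its log2 fold changes were -2.27, -1.92 and -1.94 (limma adjusted p = 0.0077, 0.026 and 0.030). Vars2, for valine, was lower in Treg PBS (-1.46, limma adjusted p = 0.040) and in CD8 DTx (-1.61, limma adjusted p = 0.042). The list had median log2 fold changes of -0.55, -0.30 and -0.28, opposite in sign to those of the ribosomal proteins over all libraries. Between libraries numbered 2 and those numbered 3, the ribosomal protein medians were 0.24 and 0.07 in Treg PBS against CD4 PBS. They did not keep 1 sign in CD4 DTx (-0.01 and 0.08) or CD8 DTx (0.45 and -0.16).

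None of the 11 translation factors was called in the 3 main comparisons, and Mtif2, an initiation factor, fell below its Treg PBS level in CD4 DTx (log2 fold change -0.91, limma adjusted p = 0.048). Of 7 genes for mitochondrial transcription and mRNA stability, Lrpprc, which stabilises mitochondrial mRNAs, was lower in Treg PBS (-1.12, limma adjusted p = 0.045) and CD4 DTx (-1.26, limma adjusted p = 0.037) than in CD4 PBS. Among 9 nuclear regulators, Pprc1, a coactivator of mitochondrial genes, was at 2438 and 2431 normalized reads in CD4 PBS and at 270, 510 and 474 in Treg PBS (log2 fold change -2.59, limma adjusted p = 0.0087). Myc was at 714, 838 and 1015 in CD4 DTx, below the CD4 PBS values of 1980 and 6068 (-2.03, limma adjusted p = 0.012). In CD8 cells it was at 3308 and 8323 in PBS and at 1541, 1717 and 1268 in DTx (-1.81, limma adjusted p = 0.028). Gabpb1, also among the 9, went the other way. Treg PBS exceeded CD8 PBS in it by 0.91 on the log2 scale (limma adjusted p = 0.0075). Pprc1 and Myc were lower in that comparison (-2.60 and -1.46). Against CD4 PBS the Gabpb1 value for Treg cells was 0.56, without a call (limma adjusted p = 0.062). Relative to Treg cells, CD8 DTx had less Gabpb1 RNA (-0.71, limma adjusted p = 0.026). Gabpa and Nrf1 lay between -0.10 and 0.24 in the 3 main comparisons and were not called.

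For scale, the 82 cytosolic ribosomal protein genes had median log2 fold changes of -0.32, -0.21 and -0.39 in Treg PBS against CD4 PBS, CD4 DTx and CD8 DTx, where the mitochondrial module had 0.23, 0.19 and 0.26. With the library number as a block in the model, the mitochondrial medians fell to 0.08, 0.06 and 0.10, and the other lists were not fitted in that way. Of the 82, 1 was higher and 5 lower in the first, 1 lower in the second and 2 lower in the third, beside calls for 20.4%, 12.7% and 10.9% of all tested genes. In Treg PBS against CD8 PBS, 17 of the 82 were lower (against 6.75% of all tested genes) and the median was -0.76. The 78 nuclear genes of the respiratory chain and ATP synthase had medians of 0.57, 0.39 and 0.43, with 3 higher and 1 lower, 0 called, and 1 higher, against the same shares of all tested genes. The mean deviation in Treg PBS 3 was -0.77 for the cytosolic list and -0.45 for the respiratory list.

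The groups of 2 and 3 libraries set how small a change could be seen. In comparisons of 3 with 2 libraries the median half-width of the 95% interval of a log2 fold change was 0.70, and the interval lay within 2-fold on both sides for 31 of the 77 genes in Treg PBS against CD4 PBS, 38 in CD4 DTx and 37 in CD8 DTx. For the remaining genes a 2-fold difference was not excluded by these data. Of the 77 genes, 10 share over 20% of their exon bases with another annotated gene, Mrps18b among those called.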

How the data were processed

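By their methods and the labels, the authors made low-input SMART-type libraries from sorted T cells, trimmed reads with Cutadapt, aligned them with hisat2 to NCBIM37 (mm9) and normalized uniquely mapped reads to library size and intergenic reads. The counter, strand setting and gene filter are not given in the sources used here. The authors deposited 1 table of a normalized signal, named FPM, in which 100% of values were whole multiples of 1 step per library (within 0.01 of a read, 0.661 to 1.37 units each). The study calls its replicates biological, collected on different days, and does not say what the numbers in the titles mark.

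The log2(value + 1) data were modelled in limma 3.58.1 (R 4.3.3, eBayes with a trend) over 13 libraries with 5 group means, for 12667 genes with at least 10 in at least 2 libraries. p-values were adjusted over all of them (Benjamini-Hochberg). Fold changes understate low genes. The design had assumed FPM, and its test and filter were kept. Alternatives were edgeR 4.0.16 and DESeq2 1.42.0 on the recovered reads, and other pseudocounts, filters, scalings, call thresholds and sets of libraries. Deviations of same-numbered libraries correlated at 0.36, 0.21 and 0.59 between CD8 DTx and CD4 DTx, which counted as paired, and blocking changed no call there. The code was tested on simulated data.

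Genes and lists were chosen with earlier results of these data known. Named were the largest positive (6, or 3 outside the first 3 comparisons) and most negative (3) fold changes among called genes, the 3 smallest p in the interaction, Mrps30, Mrps18a, Mrps36, pseudogene rows, subunits under other symbols and up to 4 called genes per list. Promoters came from RefSeq (GRCm38.p6) and exon overlaps from GENCODE M21.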

Additional observations from a re-analysis of the deposited data

How the results depend on the processing

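Leaving out 1 library gave 0 to 11 calls in Treg PBS against CD4 PBS (7 with all libraries), 0 to 1 in CD4 DTx (1), 0 to 6 in CD8 DTx (1), 0 to 1 in CD4 DTx against Treg PBS (0), 0 to 1 in CD8 DTx against Treg PBS (1), 0 to 1 in CD8 DTx against CD4 DTx (0, with 1 reached without CD8 DTx 3) and 0 to 3 in Treg PBS against CD8 PBS (3). In CD4 DTx against Treg PBS the 1 call came without CD4 DTx 1. In Treg PBS against CD4 PBS there were 2 calls without Treg PBS 1, 4 without Treg PBS 2 and 11 without Treg PBS 3. Of all tested genes, 13.9%, 15.1% and 20.9% were called in these fits, in place of 20.4%. The ranges also take in fits that left 1 library in a PBS Tconv group. Those cannot tell a change in the module from the loss of libraries.

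With the replicate number as a block the counts were 11, 2 and 3 in Treg PBS against CD4 PBS, CD4 DTx and CD8 DTx, 2 in CD4 DTx against Treg PBS and 6 in Treg PBS against CD8 PBS. In the same order, 25.3%, 16%, 14.9%, 13.7% and 23.5% of all tested genes were called. Neither labels nor methods say what that number marks, and it cannot be told apart from the sex of the mice (10 of 13 libraries correlated best with their own number). No other count of calls moved under the block. DESeq2 gave 2, 3, 2 and 5 in CD4 DTx, CD8 DTx, CD4 DTx against Treg PBS and Treg PBS against CD8 PBS, where it called 18.3%, 16.2%, 12.2% and 23.5% of all tested genes. Without the DTx libraries numbered 3 there were 3 calls in CD4 DTx, 5 in CD8 DTx and 0 in CD8 DTx against Treg PBS, where 14.6%, 20.5% and 7.21% of all tested genes were called. A fit without all libraries numbered 3, chosen after seeing the data, left 1 library in each PBS Tconv group. Each of these groups was then assumed to vary like the other groups. Calls in that fit cannot tell a change in the module from the loss of libraries, so only medians are given. The median log2 fold change of the module was 0.31 in Treg PBS against CD4 PBS, 0.22 in CD4 DTx and 0.51 in CD8 DTx. With all libraries these medians were 0.23, 0.19 and 0.26. With libraries numbered 2 and 3 alone, also chosen after seeing the data, there were 4, 2 and 1 calls in Treg PBS against CD4 PBS, CD4 DTx and CD4 DTx against Treg PBS. Of all tested genes, 18.4%, 12.2% and 5.05% were called there. Requiring over 2-fold left 0 calls in CD8 DTx, and over 4-fold left 0 in each comparison. Groups fitted alone gave 0 in CD8 DTx and 0 in CD8 DTx against Treg PBS, where edgeR and TMM scaling also gave 0. Of all tested genes, the groups fitted alone called 6.21% and 7.37%. In CD8 DTx against Treg PBS, edgeR called 6.66% and TMM scaling 8.49%. Some of these fits used fewer libraries, and the cause of these moves was not tested.

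All 13 called fold changes kept their direction under every alternative run. Some that were not called changed sign: Mrpl23-ps1 in Treg PBS against CD4 PBS (0.07; -0.01 without all libraries numbered 3, and -0.13 to 0.28 without 1 library), Mrps18a in CD4 DTx (0.06; -0.04 with the block or with libraries numbered 2 and 3 alone, -0.07 to 0.20 without 1 library) and in CD8 DTx (0.11; -0.03 with libraries numbered 2 and 3 alone, -0.03 to 0.25 without 1 library), and Mrps30 in CD8 DTx (0.06; -0.04 with libraries numbered 2 and 3 alone, -0.07 to 0.29 without 1 library). The median of the 77 genes stayed above 0 in the first 3 comparisons under all alternative fits (0.08 to 0.46, 0.06 to 0.33 and 0.08 to 0.51), and under the block it fell to 0.08, 0.06 and 0.10. Between single libraries of the same number, 2 and 3, it was -0.01 and 0.08 in CD4 DTx and 0.45 and -0.16 in CD8 DTx. In Treg PBS against CD8 PBS it turned from 0.06 to -0.07 with the block.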
